A study of Oryzias latipes with 4 samples.

Results

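Isolated short single-exon models were the transcript models with a single exon, a length below 900 nt, no other model overlapping or within 1000 bases on the chromosome, and a mean FPKM of at least 1 over the RNA-seq libraries. They were thus chosen by position, length and RNA-seq FPKM, and numbered 833 of the 93896 models in the authors' table. The Ribo-seq values played no part in the choice. A model was taken as single-exon when its length equalled the width of its locus. The libraries came from female medaka (Oryzias latipes), a small teleost fish, that had been kept under the condition labelled SD and were sampled 16 h after transfer to the condition labelled LD. The tissue combined hypothalamus, pituitary and the ventral telencephalon, and there were 2 LD RNA-seq and 2 LD Ribo-seq libraries, all prepared with the TruSeq Ribo Profile Mammalian kit. No SD group was analysed here, so the assays could be compared and the day lengths could not. Nothing in the labels ties a replicate to its own fish, so the spread between replicates may be technical.

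Most protein-coding genes of vertebrates are split by introns, and an intronless gene is transcribed as a continuous stretch from start to end. Intronless coding genes include many short transcription factors, and single-exon predictions far from any other model can also arise within introns, in untranslated ends of genes or between genes. Ribo-seq sequences the pieces of RNA that ribosomes shield from nuclease, called footprints, and therefore records occupied messages, whereas RNA-seq records all RNA that is present. In bulk tissue, fewer cells of a type and less RNA per cell cannot be told apart.

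FPKM divides the fragments of a model by its length and by the size of the library, and the size of 1 fragment could be estimated from the authors' values. At each model length below 400 nt, the most frequent FPKM above 0 matched 1 fragment under an effective length computed from a fragment distribution with mean 200 nt and SD 80 nt. The match was within 0.05% at 69 of 72 lengths in RNA-seq replicate 1, 67 of 73 in RNA-seq replicate 2, 67 of 73 in Ribo-seq replicate 1 and 60 of 69 in Ribo-seq replicate 2. The fragment totals implied by the fit were 21818880, 23381890, 10365770 and 13387220 in the same order, so the Ribo-seq libraries were the shallower ones. At 183 nt, the most common length, 1 fragment was worth 2.03 and 1.90 FPKM in the RNA-seq libraries and 4.29 and 3.32 FPKM in the Ribo-seq libraries, because the effective length at 183 nt was only 22.5 to 22.6 nt. The Ribo-seq values per fragment were the higher ones because of the smaller totals. At 894 nt, the greatest length, 1 fragment was worth 0.066 and 0.062 FPKM in RNA-seq and 0.14 and 0.11 FPKM in Ribo-seq. An FPKM of 1 thus stood for less than 1 fragment in the shortest models and for several in the longest. Not all recovered values were whole: in RNA-seq replicate 1, 527 of the 833 models had a value more than 0.02 from a whole number. The handling of fragments that map to several places is not given in the sources used here. Values are therefore called fragment equivalents, and no count model was run on them.

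**Figure D1:**
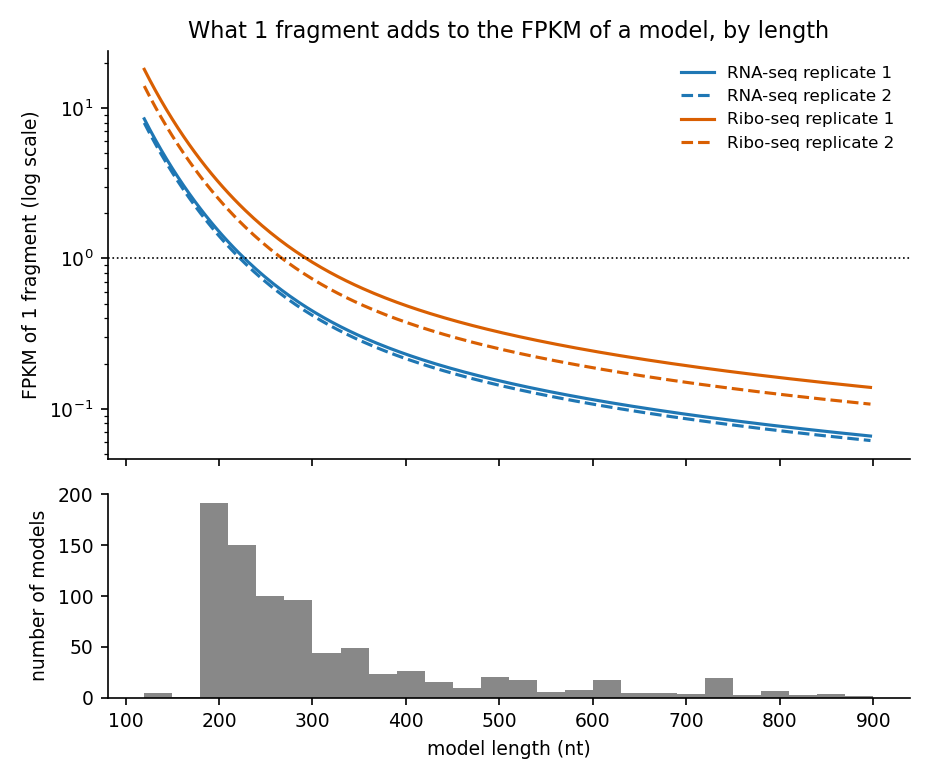
Upper panel: FPKM that 1 fragment adds to a model (log scale) against model length in nt, for each of the 4 libraries, with a dotted line at an FPKM of 1. Lower panel: lengths of the 833 models in bins of 30 nt. The curves fall steeply over the lengths that hold most models, from 2.03 FPKM at 183 nt to 0.68 FPKM at 258 nt in RNA-seq replicate 1.

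The models were short and apart from others, as the rule required, and most had a length that was a multiple of 3. No sequence was examined for a reading frame. Their length ran from 120 to 894 nt with a median of 258 nt, the length of 86 codons, and quartiles of 213 and 351 nt. Of the 833, 543 were shorter than 300 nt, while only 6 were shorter than 180 nt. The length was a multiple of 3 in 812 (97.5%), against 76.2% of the 58645 models of any kind that passed the same RNA-seq limit. The same share was 97.6% among 1232 single-exon models nested within spliced models and 96.2% among 10238 spliced models of at most 300 nt, so it did not set the isolated models apart from other short models. The nearest other model lay at a median distance of 2073 bases and at most 25609 bases, and 101 models had none within 5000 bases. All 24 chromosomes held some, from 21 to 58 each.

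The limits of the rule cut through continuous ranges. The longest models kept were 894 and 876 nt, and the shortest ones left out on length alone were 900 and 903 nt. The model of 900 nt had mean FPKM of 2.16 in RNA-seq and 1.12 in Ribo-seq, whereas the one of 903 nt, MEDAKA070688, had 199 in RNA-seq and 483 in Ribo-seq. The lowest RNA-seq means kept were 1.0002 and 1.0017, and the highest left out were 0.9987 and 0.9968. The smallest distances kept were both 1002 bases, and the largest left out were 1000 and 993 bases. In all, 1331 single-exon models met the limits on length and distance, and 498 of them fell below the RNA-seq limit, 128 of these listed at 0 in both RNA-seq libraries.

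RNA levels, which the rule used, were low for most of the models. The mean over the RNA-seq libraries had a median of 4.13 FPKM, quartiles of 2.05 and 8.42 FPKM and a maximum of 364 FPKM. It reached 10 in 168 models and 50 in 26. In fragment equivalents summed over both RNA-seq libraries, the median was 15, the quartiles were 6.97 and 34.4 and the maximum was 1580. A total of 45 models passed the RNA-seq limit on fewer than 3 fragments and 297 on fewer than 10. The RNA-seq replicates were within 2-fold of each other in 638 models, and 36 models were listed at 0 in 1 of them. Spearman's rho across the 833 models was 0.78 for the pair of RNA-seq replicates and 0.65 for the pair of Ribo-seq replicates, as a description over models that share each library's depth.

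Footprints, which the rule did not use, were absent or close to absent from most of these models. In Ribo-seq replicate 1 an FPKM of at least 1 was found in 208 models (24.97%), against 51% of all 58645 models with RNA. In replicate 2 it was found in 171 models (20.5%), against 53.1%. By the mean of both replicates, 209 models (25.1%) reached 1, against 53.5%, and 62 (7.44%) reached 10, against 17.7%. Among nested single-exon models 34.25% reached 1 and 13.23% reached 10, and among short spliced models 36.57% and 15.88% did. Both Ribo-seq libraries listed 0 for 315 models (37.8%), against 14.3%. The same share was 40.02% among nested single-exon models and 39.4% among short spliced models, so it did not set the isolated models apart from other short ones. For 209 of these 315, the RNA-seq mean was no higher than the mean FPKM that 3 fragments in each Ribo-seq library would have given. Taken 1 library at a time, about as many FPKM in Ribo-seq as in RNA-seq could thus have gone unseen. For the remaining 106 the RNA-seq mean was above that limit. Both libraries at 0 together set a tighter limit, which was not computed. The comparison used FPKM as deposited and left out the counting error of the RNA-seq mean, so 209 is not a bound in either direction. The limits cover counting error in Ribo-seq only, and the sources used here mention no molecular identifiers.

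Counted in fragment equivalents over both Ribo-seq libraries, 315 models had no footprint, 222 had more than 0 but less than 1, 120 had 1 to below 3, 72 had 3 to below 10 and 104 had at least 10. The 51 models with at least 50 footprints held 88.7% of all footprints on these models. At least 3 footprints were present on 176 models (21.1%), against 63.9% of all models with RNA, and 105 models had at least 3 in each library. Among short spliced models 28.13% had at least 3 footprints over both libraries, and among nested single-exon models 32.87% did. A total of 62 models had a mean Ribo-seq FPKM of at least 1 from fewer than 3 footprints, so the FPKM limit alone overstated how many had been seen repeatedly.

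The share with footprints rose with the RNA available to be seen. With fewer than 5 RNA fragment equivalents 1 of 118 models had at least 3 footprints, with 5 to below 20 it was 27 of 367, with 20 to below 50 it was 53 of 208 and with 50 or more it was 95 of 140. Among models with at least 20 RNA fragment equivalents the share was 148 of 348 (42.5%). It was 57.1% of 592 nested single-exon models, 55.0% of 3917 short spliced models, 89.0% of 73 isolated single-exon models of 900 nt or more, and 77.1% of 46365 models of any kind at the same minimum. These shares are descriptions, since models are not replicates of a condition and lengths differ between the classes.

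Where a model lay relative to RefSeq genes divided the set. The deposited models carry no gene names or strand, so genes were taken by position from the RefSeq table of assembly ASM223467v1, which gives gene spans and neither exons nor introns. Of the 833 models, 21 overlapped a protein-coding gene spanning at most 5 kb and 477 a larger protein-coding gene. A further 21 overlapped a gene of another kind and 314 lay outside every gene. A model overlapping several genes was counted under the gene of best mutual overlap. Of the 477, 106 had their centre in the outer 5% of the gene span, at either end, and 371 lay further in. At least 3 footprints were present on 18 of 21 models in compact genes (85.7%), on 71 of 106 near the ends of larger genes (67.0%), on 58 of 371 in their inner part (15.6%), on 2 of 21 in other genes (9.52%) and on 27 of 314 outside genes (8.60%). With either Ribo-seq library alone, the share in the inner part was 9.97% or 10.8%. Outside genes it was 5.10% or 4.78%, since 3 footprints then had to come from 1 library. Of isolated single-exon models too long for the rule, 20 of 20 in compact genes had at least 3 footprints. Near ends 5 of 5 did, and in inner parts 29 of 33 (87.9%). In other genes 2 of 2 did, and outside genes 9 of 13 (69.2%). These longer models had more RNA, with a median of 324 fragment equivalents in inner parts against 15 in the set. By a mean Ribo-seq FPKM of at least 1, 72.7% of them passed in inner parts and 7.69% outside genes.

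Depth and length moved with position. The median length was 576 nt in compact genes, 261 nt near the ends of larger genes, 252 nt in their inner part and 255 nt outside genes. The median number of RNA fragment equivalents was 92.2, 32, 15 and 11.1 in the same order. Among models with at least 20 RNA fragment equivalents, at least 3 footprints were present on 18 of 20, 58 of 72, 47 of 152 and 24 of 97, which were 90%, 80.6%, 30.9% and 24.7%. These 4 positions kept their order with this minimum. In other genes the share was 1 of 7 (14.3%). The parts of length and of the remaining depth were not tested. The cut at 5 kb, the cut at 5% and the bins of position below were chosen after values were seen, and no test was made of them.

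Within larger genes the share with footprints fell from the ends inward. It was 37 of 45 models (82.2%) within 1% of the nearer end, 34 of 61 (55.7%) from 1 to 5%, 15 of 45 (33.3%) from 5 to 10%, 11 of 68 (16.2%) from 10 to 20% and 13 of 96 (13.5%) from 20 to 30%. Nearer the middle it was 8 of 74 (10.8%) from 30 to 40% and 11 of 88 (12.5%) from 40 to 50%. With at least 20 RNA fragment equivalents the shares were 29 of 33, 29 of 39, 14 of 20, 9 of 30, 9 of 44, 6 of 25 and 9 of 33. The median Ribo-seq FPKM went from 9.03 within 1% of an end to 0.0306 at 10 to 20%, while the median RNA-seq FPKM went from 10.05 to 5.04.

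**Figure D2:**
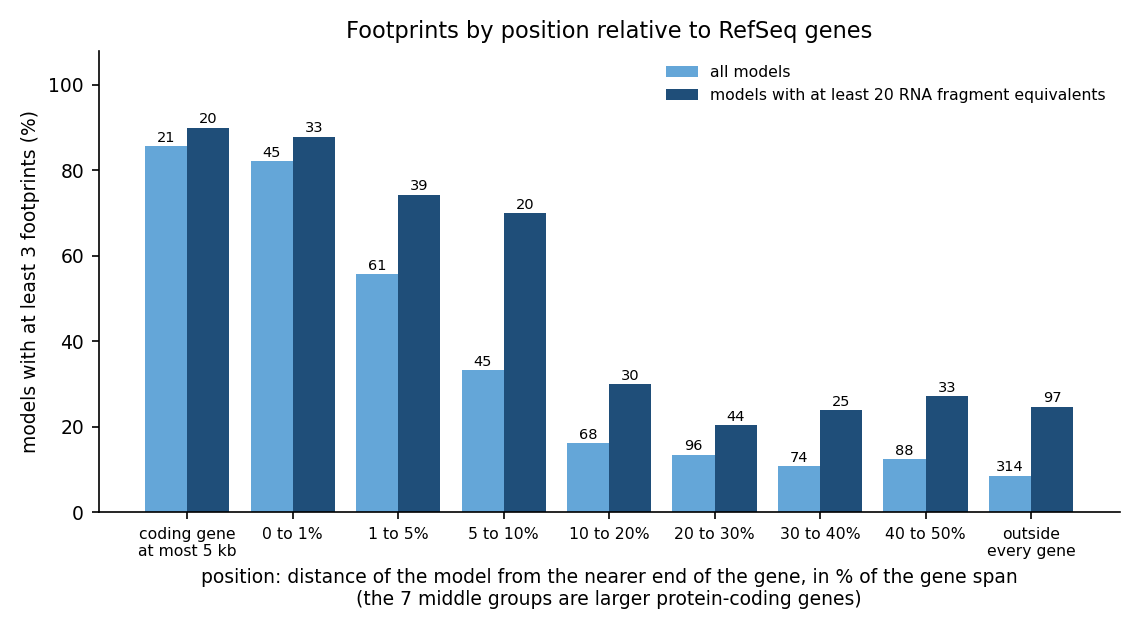
Share of models with at least 3 footprints (percent) by position relative to RefSeq genes, for all models and for those with at least 20 RNA fragment equivalents; numbers above the bars are models. The bars fall from 85.7% in coding genes of at most 5 kb and 82.2% within 1% of a gene end to 8.60% outside every gene, and the fall is also seen in the bars with an RNA minimum.

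Footprints were concentrated in a small number of models. The 21 models in compact genes were 2.52% of the set and held 16.4% of its RNA fragment equivalents and 47.7% of its footprints. The 106 near the ends of larger genes held 25% of the RNA and 27.4% of the footprints. The 371 in inner parts held 34.7% of the RNA and 20.8% of the footprints, and the 314 outside genes held 23.1% and 3.96%.

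**Figure D3:**
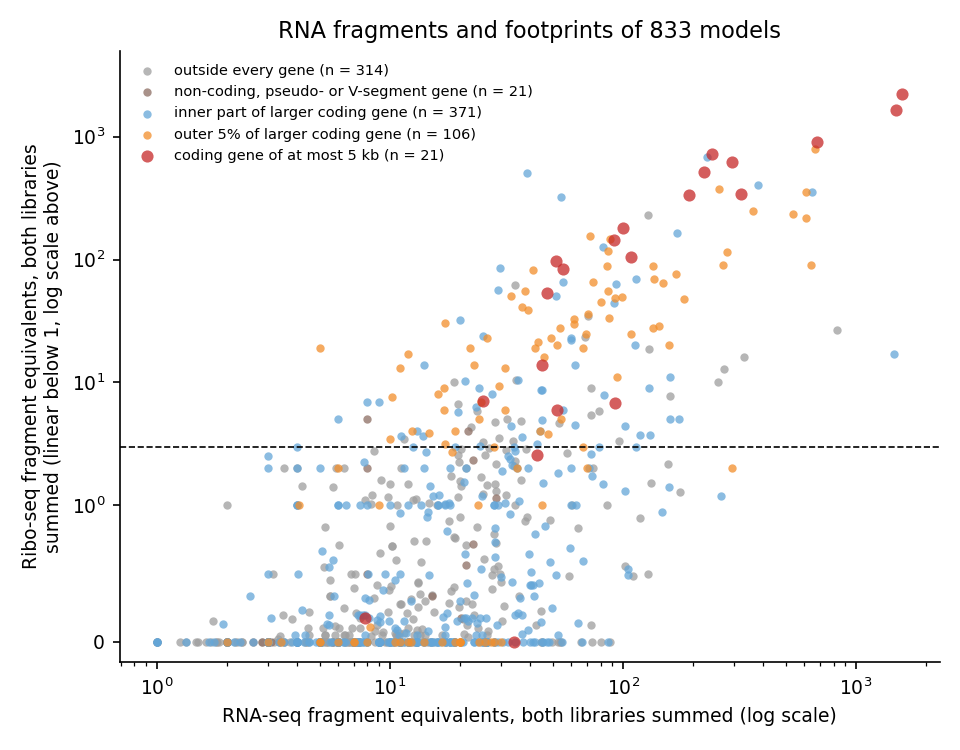
Ribo-seq against RNA-seq fragment equivalents of each of the 833 models, each summed over both libraries of the assay (log scale, linear below 1 for Ribo-seq) and coloured by position; the dashed line marks 3 footprints. Models in coding genes of at most 5 kb reach the top right, with up to 2206 footprints, and most models of inner parts and outside genes lie below the line.

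The compact genes included transcription factors, a neuropeptide and signalling proteins. Of the 21, 11 carried a gene symbol and 10 only a locus number, and 18 models lay whole within the gene span. These genes were singled out after their values were seen. All models with a symbol except that of cdk5r1 lay whole within their gene, covering 14.0% (tmem203) to 48.3% (olig2) of its span.

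The highest of them was the model in bhlhe23 (MEDAKA053791, chromosome 7, 15898464 to 15899147), a gene for a basic helix-loop-helix transcription factor. It had 79.7 and 65.7 FPKM in RNA-seq and 131 and 240 FPKM in Ribo-seq. Both Ribo-seq values were above both RNA-seq values, and the log2 difference of scaled values, Ribo-seq minus RNA-seq, was 2.08 ± 0.19 (SE, n = 2 per assay). The model in bhlhe22 (MEDAKA050565, chromosome 20, 17239857 to 17240663), a related factor of neurons, had 51.9 and 56.8 FPKM in RNA-seq and 86.3 and 136 FPKM in Ribo-seq. The assays did not overlap here either, with a difference of 1.78 ± 0.15.

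Further transcription factors showed the same order of assays at lower levels. In jund (MEDAKA071370, chromosome 4, 13821064 to 13821888), which encodes a subunit of the AP-1 factor, RNA-seq gave 18.0 and 29.7 FPKM and Ribo-seq gave 30.5 and 85.7 FPKM. Its Ribo-seq replicate 1 was barely above its RNA-seq replicate 2, and the difference of 1.89 ± 0.47 carried the widest error of these factors. In olig2 (MEDAKA006622, chromosome 21, 5178495 to 5179301), a factor of oligodendrocyte and motor neuron precursors in mouse and zebrafish, RNA-seq gave 5.68 and 8.20 FPKM and Ribo-seq gave 13.2 and 31.0 FPKM. The assays did not overlap in olig2, and its difference was 2.17 ± 0.34.

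The model in crh (MEDAKA050539, chromosome 20, 17099073 to 17099564) belongs to corticotropin-releasing hormone, the hypothalamic peptide that drives release of corticotropin from the pituitary. It had 20.8 and 16.0 FPKM in RNA-seq, from 132 and 109 fragment equivalents. Ribo-seq gave 61.6 and 138 FPKM, from 186 and 535. All Ribo-seq values lay above all RNA-seq values, and the difference of 3.05 ± 0.28 exceeded that of each other model in a compact gene.

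Both models in genes for membrane proteins, tmem203 and gas1, were higher in Ribo-seq. In tmem203 (MEDAKA069045, chromosome 12), a transmembrane protein by its name, RNA-seq gave 9.05 and 11.7 FPKM and Ribo-seq 28.6 and 41.8 FPKM, with a difference of 2.41 ± 0.19. In gas1 (MEDAKA004964, chromosome 9), which in mouse encodes a membrane-anchored partner of hedgehog signalling, RNA-seq gave 4.33 and 4.04 FPKM and Ribo-seq 4.38 and 10.2 FPKM. The Ribo-seq values of tmem203 were well apart from its RNA-seq values, while the lower Ribo-seq value of gas1 almost touched its RNA-seq values, with a difference of 1.24 ± 0.28.

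Others showed no excess of footprints. In g0s2 (MEDAKA034264, chromosome 5), which in mammals inhibits a fat-cell lipase, RNA-seq gave 8.06 and 3.75 FPKM and Ribo-seq 5.08 and 2.19 FPKM, and the assays overlapped. In socs1 (MEDAKA028532, chromosome 8), a suppressor of cytokine signalling, RNA-seq gave 0.920 and 1.83 FPKM and Ribo-seq 0.727 and 0.75 FPKM, all low. The model in cdk5r1 (MEDAKA000103, chromosome 19), whose product activates a kinase of neurons, had 62.3 and 21.5 FPKM in RNA-seq and 17.3 and 2.68 FPKM in Ribo-seq. Only 53.3% of that model lay within the gene, its replicates were far apart in both assays, and its footprints were 5 and 1 fragment equivalents.

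Among the locus-numbered genes, models in LOC101170898 and LOC101161290 were the only members of the set whose span and a gene's span each covered at least 50% of the other. The first (MEDAKA054265, chromosome 1, 3745367 to 3745775) had 35.7 and 27.2 FPKM in RNA-seq and 80.4 and 161 FPKM in Ribo-seq. The second (MEDAKA054547, chromosome 1, 2173281 to 2173655) had 32.3 and 24.7 FPKM in RNA-seq and 74.2 and 162 FPKM in Ribo-seq. The models resembled each other in level in every library, with differences of 2.62 ± 0.24 and 2.71 ± 0.28. In RNA-seq replicate 1 they had 161.8 and 122.7 fragment equivalents, which are not whole. Whether the models shared fragments was not tested. A contrasting case was the model in LOC110013652 (MEDAKA011672, 192 nt), which by position also lay within the longer span of ank2. It had 27.6 and 29.1 FPKM in RNA-seq and 0 in both Ribo-seq libraries. A count of 0 allowed up to 10.95 and 8.48 FPKM there, being 3 fragments per library, and both limits were below its RNA-seq values. Counting this model, 3 models of compact genes were called lower in Ribo-seq by limma, against 39.5% of all models tested. The others, in LOC111948633 and LOC105358461, had differences of -1.38 ± 0.24 and -1.90 ± 0.19. Only 18.8% of the first lay within its gene, and the second rested on 7.79 RNA fragment equivalents.

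**Figure D4:**
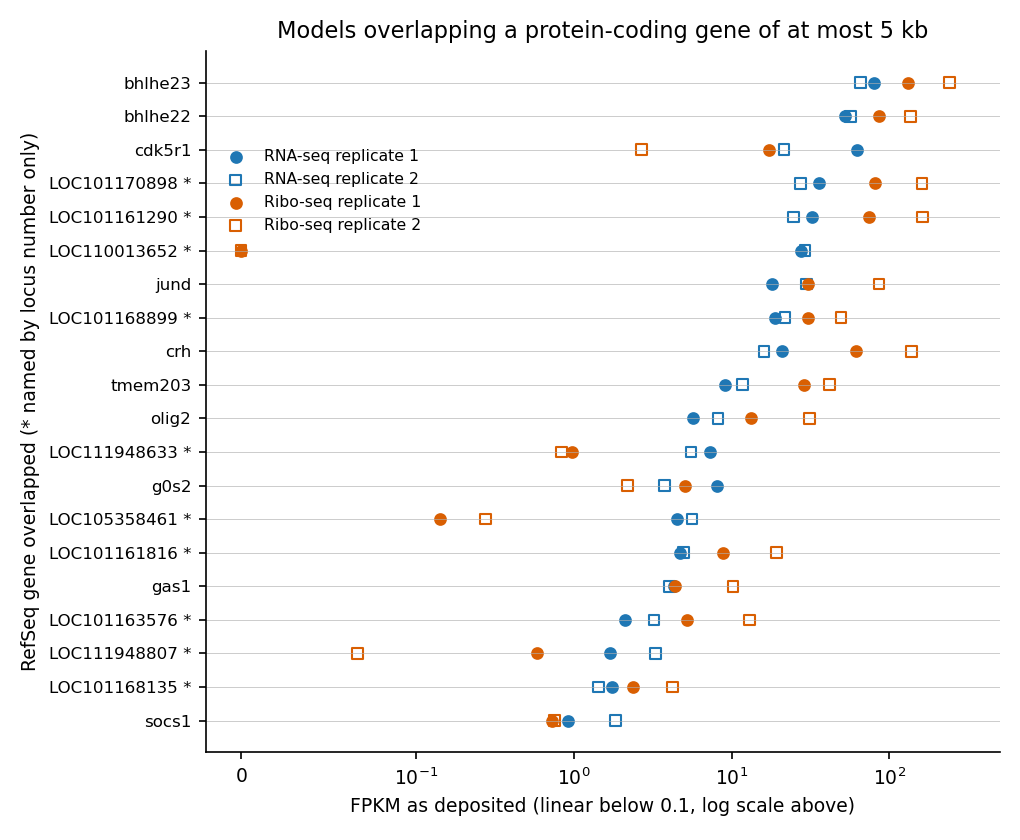
FPKM as deposited in each of the 4 libraries (log scale, linear below 0.1) for 20 of the 21 models overlapping a protein-coding gene of at most 5 kb, ordered by mean RNA-seq FPKM. In 13 of the 20 both Ribo-seq points lie to the right of both RNA-seq points, in 6 to the left, and in 1 the assays overlap. Over all 58645 models tested, both Ribo-seq values were above both RNA-seq values in 14.5% and below in 64.1%.

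These calls depended on the scaling and on the RNA-seq replicates. All 14 models of compact genes with both Ribo-seq values above both RNA-seq values were called higher by limma on scaled values. Over all models tested 20.2% were. In compact genes, 14 of 20 isolated single-exon models too long for the rule were also called higher. Their median difference was 1.55, against 1.78 for the 21 models of the set. The excess in compact genes thus did not set the short models apart from longer isolated ones. With FPKM as deposited the differences of the 14 models of the set stayed above 0. Their calls were kept for 5 of the 14, among them those of crh, tmem203, LOC101170898 and LOC101161290. The share of all models called higher also fell, to 4.1%. The calls for bhlhe22, bhlhe23, jund, olig2 and gas1 were among those lost. Without RNA-seq replicate 1 or 2 most of the 14 calls were lost, as were most higher calls over all models. The differences of the 14 then ran from 1.13 to 3.16. The call for crh was lost in both cases, with differences of 3.16 and 2.89. Leaving out a Ribo-seq replicate kept every call of the 14, with differences from 1.09 to 3.58, while higher calls over all models became more frequent.

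The outer 5% of larger genes held 5 of the 8 models with the highest RNA-seq means. The model near an end of pea15 (MEDAKA079793, chromosome 18, 21230757 to 21230972) had the highest mean RNA-seq FPKM of the set. Pea15 is a phosphoprotein abundant in astrocytes of mammals. The model had 351 and 378 FPKM in RNA-seq and 84.3 and 109 FPKM in Ribo-seq, with all Ribo-seq values below all RNA-seq values, and its centre lay 0.16% of the span from the end of the gene. The model near an end of cacna1a (MEDAKA081733, chromosome 1, 27038523 to 27038708), the pore subunit of a neuronal calcium channel, had 267 and 233 FPKM in RNA-seq and 114 and 195 FPKM in Ribo-seq, the higher assay as deposited being RNA-seq in all libraries. After scaling its difference was 0.06 ± 0.16, and with FPKM as deposited it was -0.74, so its direction depended on the scaling.

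The next of this kind were unnamed genes. In LOC101155978 the model (MEDAKA091708, chromosome 23) had 176 and 142 FPKM in RNA-seq and 81.9 and 157 FPKM in Ribo-seq. In LOC101162673 the model (MEDAKA020170, chromosome 4) had 154 and 156 FPKM in RNA-seq and 91.8 and 116 FPKM in Ribo-seq. In LOC101171151 the model (MEDAKA010236, chromosome 3) had 96.9 and 89.3 FPKM in RNA-seq and 69.4 and 128 FPKM in Ribo-seq. The assays overlapped in the first and the last of these, and in the middle one both Ribo-seq values were below both RNA-seq values. With FPKM as deposited the differences of the first and the middle one were -0.47 and -0.58, against 0.33 and 0.22 after scaling. The last one, the only one of these called, had a difference of 0.82 ± 0.18 after scaling and 0.02 as deposited, where its call was lost. Upper-quartile scaling added a call for the middle one, at a difference of 0.56.

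In the inner part of larger genes, high RNA could come with few footprints. The 50 inner models with at least 50 RNA fragment equivalents had a median of 3.75 footprints, against 49.3 for 40 such models near gene ends. A second model in the span of pea15 (MEDAKA079804, chromosome 18, 21278043 to 21278675), 7.47% of the span from its nearer end, had 67.0 and 81.0 FPKM in RNA-seq and 1.57 and 1.73 FPKM in Ribo-seq. Its 1448 RNA fragment equivalents stood against 17.0 footprints, and its difference was -4.14 ± 0.20. The model in basp1 (MEDAKA080219, chromosome 17, 9101758 to 9101937), a gene for a membrane-bound protein of growing axons, had 134 and 169 FPKM in RNA-seq and 3.17 and 0.877 FPKM in Ribo-seq. Those Ribo-seq FPKM stood for only 0.70 and 0.25 of a fragment, and its difference of -5.05 ± 0.61 was the furthest below 0 among the models named by size.

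Several models could lie in 1 gene. The 477 models of larger genes fell in 407 genes, of which 51 held at least 2 and 13 at least 3. Each model was assigned to 1 gene, that of best mutual overlap. By this assignment ank2, which encodes an ankyrin scaffold of neurons, held 6, more than any other gene. MEDAKA011672, assigned to LOC110013652 above, overlapped 2 genes and by position also lay within the span of ank2. Of the 6 assigned to ank2, 4 were 183 nt long. Each of the 4 had a Ribo-seq FPKM of 0.415 in replicate 2, equal to 0.125 of a fragment. The highest of the 4 (MEDAKA011689) had 60.7 and 35.5 FPKM in RNA-seq and 1.96 and 0.415 FPKM in Ribo-seq, and the next (MEDAKA011688) had 51.2 and 29.7 FPKM in RNA-seq and 1.25 and 0.415 FPKM in Ribo-seq. These 4 values are uncertain, since the authors' counting could have split fragments between near-identical copies, which was not tested. Models in the span of 1 gene may share a source, which was not tested, so they cannot be taken as independent. The span of alk, a receptor tyrosine kinase, held 4, with mean RNA-seq FPKM from 1.80 to 9.35 and mean Ribo-seq FPKM from 0 to 0.12. The span of rbfox3, which encodes a neuronal splicing factor, held 3, with 2.79 to 6.41 and 0 to 1.08.

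Some inner models departed from this by carrying many footprints. The model in LOC101170191 (MEDAKA003126, chromosome 9, 1643306 to 1643500) had the highest Ribo-seq FPKM of the set, 343 and 604, against 49.9 and 36.0 in RNA-seq. That was 99.0 and 225 footprints against 30.4 and 23.5 RNA fragment equivalents, and the assays were far apart, by 4.19 ± 0.21. The model in LOC105354904 (MEDAKA003693, chromosome 10, 15856450 to 15856902) had 4.67 and 2.25 FPKM in RNA-seq and 65.1 and 101 FPKM in Ribo-seq. Its difference of 4.94 ± 0.28 was the furthest above 0 among the models named by size, and it lay 5.30% of the span from the nearer end, close to the limit used here for ends. The model in LOC101171153 (MEDAKA031153, 852 nt, chromosome 4) had 8.04 and 7.63 FPKM in RNA-seq and 29.4 and 55.5 FPKM in Ribo-seq, with no overlap. The model in LOC110016276 (MEDAKA013026, chromosome 13) had 94.0 and 63.0 FPKM in RNA-seq and 86.2 and 186 FPKM in Ribo-seq. Its assays overlapped, and its difference went from 1.51 after scaling to 0.71 as deposited, where its call was lost.

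The models outside every gene lay at a median of 8788 bases from the nearest RefSeq gene, from 192 to 217828 bases, and 50 were within 2 kb. High RNA was found there too. MEDAKA088606 (chromosome 21, 11963894 to 11964136), 77719 bases from kdm6a, had 352 and 296 FPKM in RNA-seq and 18.9 and 20.6 FPKM in Ribo-seq. Its 824 RNA fragment equivalents stood against 26.5 footprints, its replicates were close in both assays, and its difference was -3.18 ± 0.19. MEDAKA075916 (chromosome 14, 14316491 to 14316679), 7880 bases from zbtb20, had 230 and 220 FPKM in RNA-seq and 26.9 and 8.93 FPKM in Ribo-seq, the latter from 7 and 3 footprints.

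Further models outside genes had RNA with hardly a footprint. MEDAKA040981 (chromosome 18, 16092470 to 16092706) had 81.2 and 68.1 FPKM in RNA-seq and 2.17 and 0.155 FPKM in Ribo-seq, which was 1.17 and 0.11 of a fragment. MEDAKA021014 (144 nt, chromosome 12) had 59.1 and 62.1 FPKM in RNA-seq and 2.56 and 0.938 FPKM in Ribo-seq. Its RNA values rested on 13.0 and 14.5 fragment equivalents only, so a high FPKM at this length was a small number of fragments. The highest footprint level outside genes was on MEDAKA076550 (chromosome 6, 8287598 to 8287966), 4111 bases from ticrr, which was singled out after its values were seen. It had 15.5 and 18.1 FPKM in RNA-seq and 31.9 and 76.9 FPKM in Ribo-seq, from 228.5 footprints, and its assays did not overlap.

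Genes of other kinds were rare among the hosts. A total of 18 models were assigned to a lncRNA gene, 2 to a pseudogene and 1 to an immunoglobulin or receptor V segment. Of these, 2, both in lncRNA genes, had at least 3 footprints. Those were MEDAKA000741 in LOC110015648, with 4 footprints, and MEDAKA056830 in LOC111948443, with 5, and all of these footprints came from Ribo-seq replicate 1. None of the models was assigned to any of the 763 tRNA, 102 rRNA, 179 snRNA, 155 snoRNA or 161 miRNA genes on the assembled chromosomes of the RefSeq table. Overlaps with such genes beyond that assignment were not counted.

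Gene families searched for intronless members held few models of the set by number. Symbols were matched by their start only, so the genes found are not all known to be intronless. Of 37 RefSeq genes found for transcription factors and immediate-early genes, 4 held a model of the set, among them bhlhe22, jund and olig2, described above. Of 69 receptor genes, compact ones held no model, and the larger genes gpr63, an orphan receptor, and mtnr1a, a melatonin receptor, each held 1. None of 71 ribosomal protein genes and none of 3 chemokine genes held one, and no RefSeq symbol began with the histone names searched. A gene absent here may have a model that is longer, spliced or close to another model, since the rule kept isolated short ones.

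The assays were also compared by a fit over the whole table. Since the rule fixed the RNA arm of this contrast, calls for these models are a description. Of all 58645 models tested with limma, 20.2% were called higher in Ribo-seq and 39.5% lower, at an adjusted p below 0.05. Among the 833 models, 47 were called higher and 511 lower, and 275 were not called. Without adjustment 51 were higher and 545 lower, against 22.6% and 42.7% of all models. The median log2 difference was -1.34, against -0.55 over all models tested, -1.37 over the short spliced models and -1.25 over the nested single-exon models. The scaling rested on models above 0 in all 4 libraries, so 0 stands for their typical ratio. Both Ribo-seq values lay above both RNA-seq values in 43 models, against 14.5% of all models, and below in 676, against 64.1%. Of the 511 lower calls, 180 rested on fewer than 10 RNA fragment equivalents, whereas none of the 47 higher calls rested on fewer than 10 footprints. The higher calls comprised 14 models in compact genes, 19 near the ends of larger genes, 12 in their inner part and 2 outside genes. The lower calls comprised 3 in compact genes, 30 near ends of larger genes, 254 further in, 13 in other genes and 211 outside. Without scaling, 19 of the models were higher by the same test and 590 lower, against 4.13% and 48.5% of all models. Leaving out RNA-seq replicate 1 left 11 higher calls, leaving out RNA-seq replicate 2 left 14 and leaving out Ribo-seq replicate 2 gave 71, against 3.8%, 3.83% and 24.6% of all models.

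**Figure D5:**
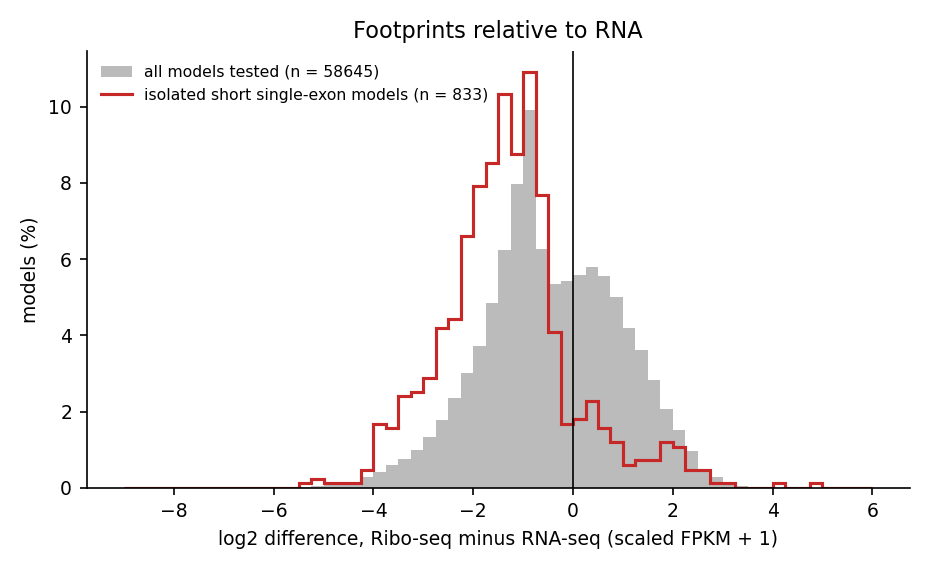
Distribution of the log2 difference, Ribo-seq minus RNA-seq of scaled FPKM plus 1, for the 833 isolated short single-exon models (red line) and all 58645 models tested (grey), as percent of models per bin of 0.25. The red line lies to the left, with a median of -1.34 against -0.55, and has a small group of models above 0. Short spliced models, not drawn, had a median of -1.37 and nested single-exon models one of -1.25.

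The set made up a small share of each library. It held 1.26 and 1.22% of the summed FPKM in the RNA-seq libraries and 0.41 and 0.53% in the Ribo-seq libraries, for 0.887% of the models. The mean share fell by 0.769 percentage points from RNA-seq to Ribo-seq, with no overlap between assays. Since the rule kept models for their RNA-seq level, this is a description and no test is given. A single highest model, outside the set, took 7.33 and 7.09% of the summed FPKM in RNA-seq and 31.7 and 21.1% in Ribo-seq. Without the 10 highest models of each library the shares were 1.45, 1.36, 0.70 and 0.71%.

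Markers of the dissected regions were present. Of the marker genes with a matched model, 5 of 6 for the pituitary, 7 of 7 for the hypothalamus, 6 of 6 for neurons, 3 of 3 for radial glia, 2 of 2 for oligodendrocytes, 3 of 4 for vessels and 2 of 2 for microglia and blood reached a mean RNA-seq FPKM of 1. Markers of meninges did so for 1 of 2, of skin or muscle for 0 of 1 and of retina and pineal for 0 of 3. The lists were longer, and genes without a matched model were not assessed. They held 10 genes for the pituitary, 15 for the hypothalamus, 8 for neurons, 7 for radial glia and 5 for oligodendrocytes. For vessels they held 6, for microglia and blood 7, for meninges 4, for skin or muscle 5 and for retina and pineal 5. The pituitary hormone genes pomc and cga had mean RNA-seq FPKM of 239 and 250, whereas the pituitary hormone gene prl had 0.24. Among the 7 hypothalamic markers was crh, a member of the set. The rule itself required its RNA-seq mean to reach 1, so its pass was fixed beforehand and tells nothing about the dissection. The crh model was matched by lying whole within its gene. It covered only 31.1% of the gene span, so this was not a match over most of both spans.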

How the data were processed

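Ribosome footprints and RNA were measured in 4 libraries. The authors deposited FPKM per library for 93896 models (unit per the file headers). Cufflinks 2.2.1 and TopHat2 2.1.0 appear in the submitters' processing notes. What each tool did, the build, the annotation and any use of strand are left unstated: each is not given in the sources used here. Model ends fell within 10 bp of RefSeq protein-coding gene ends 2137 times, against 62 after moving the models by 20 kb, so RefSeq names of assembly ASM223467v1 were used by position. Coordinates are those of the authors' models, counted from 1.

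From the FPKM, fragment equivalents were computed as FPKM times effective length times fragment total, a step added after the data were seen. Libraries were scaled by median ratios (factors 1.40, 1.32, 0.651 and 0.925). Models passing the RNA-seq limit of the rule, as every member does, were fitted as log2(scaled FPKM + 1) in R 4.3.3 by limma 3.58.1, using lmFit and a trended eBayes, with Benjamini-Hochberg adjustment over all 58645. This log2 scale understates the change of low models. The fit was tested on simulated data. Python 3.11.15 with scipy 1.17.1, pandas 2.3.3 and numpy 2.4.6 served for the rest.

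The members, lists and alternatives were chosen with earlier results of these data known. Models were named if among the 8 highest in RNA-seq or in Ribo-seq, or among the 6 with the largest difference per direction (called, above 0 in each library, a mean of at least 10 in the higher assay, no overlap), or matched to a gene over 50% of both spans, in a gene list, or next to a limit of the rule. The models of compact genes and MEDAKA076550 were added after values were seen. Alternatives covered scaling, pseudocount, filter, limits of the rule, a replicate term and leaving out each library. Sequences are not shown. 1 model of a compact gene is not reported here.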

Additional observations from a re-analysis of the deposited data

How the results depend on the processing

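The median difference stayed below 0 and lower calls outnumbered higher ones under every alternative run, and the same held over all models in every fit. The median was -1.71 with FPKM as deposited, -1.22 with upper-quartile scaling, -3.30 with a pseudocount of 0.1, -1.62 among 658 models with a mean of at least 1 over all libraries, -2.24 among 356 models with an RNA-seq mean of at least 5, and -1.53 to -1.25 leaving out 1 library at a time. Over all models fitted the medians were -0.99, -0.35, -0.98, -0.20, -0.013 and -0.52 to -0.42 in the same order. Higher calls numbered 19 with FPKM as deposited, 5 of 101 models with no other model within 5000 bases, and 11 to 71 leaving out 1 library (4.13% of all models as deposited, 3.8 to 26.7% leaving out 1 library). Lower calls numbered 223 with the RNA-seq mean of at least 5, 64 with the wider isolation, and 413 to 494 leaving out 1 library (32.1% of all models with the higher limit, 25.7 to 36.6% leaving out 1 library). The counts with the wider isolation came from the main fit, where 20.2% of all models were called higher and 39.5% lower. Without 1 library an assay has 1 sample, assumed to vary like the other assay. Some of the 38 models named or in compact genes were not called in the main fit and had no call to lose. Most calls among the 38 were lost without RNA-seq replicate 1, and most without RNA-seq replicate 2. With FPKM as deposited 11 calls were lost. Nothing in the labels pairs libraries with the same replicate number: their deviations correlated at 0.06 over all models and 0.04 over the members, and a replicate block gave 44 higher and 519 lower calls, against 18.8% and 38.3% of all models, with no change of call among the 38.

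The share of models with an FPKM of at least 1 became 28.7% in Ribo-seq replicate 1 with the wider isolation and 29.3% with scaled values; above 0 it was 54.0% in replicate 1 and 48.4% in replicate 2. At 10 footprints in place of 3, the shares were 50% near gene ends, 6.74% in inner parts and 3.50% outside genes. With at least 20 RNA fragment equivalents they were 80.6%, 30.9% and 24.7%. By a mean FPKM of at least 1, 14.0% of models outside genes passed. Again by 3 footprints, the wider isolation gave 2.70% outside genes and 100% of 11 near ends, and lengths below 600 nt gave 5.40% outside genes. With 1 Ribo-seq library the shares were 81.0 to 85.7% in compact genes, 50.9 to 60.4% near ends, 9.97 to 10.8% in inner parts and 4.78 to 5.10% outside. The difference in summed FPKM was -0.829 to -0.709 points leaving out 1 library.

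Of the 47 models called higher, 2 had a difference below 0 with FPKM as deposited; the named models that changed direction were not called. With FPKM as deposited the difference was -0.74 for MEDAKA081733, -0.47 for MEDAKA091708, -0.58 for MEDAKA020170 and -0.58 for MEDAKA034264. Upper-quartile scaling gave 0.15 for MEDAKA028532. Leaving out 1 library at a time gave -0.0096 to 0.40 for MEDAKA081733, -0.47 to 0.96 for MEDAKA034264, -0.28 to 0.22 for MEDAKA028532 and -2.73 to 0.16 for MEDAKA000103. The causes were not tested. Footprint depth limits all absences: 209 of the 315 models listed at 0 could hide a Ribo-seq FPKM equal to their RNA-seq mean, both as deposited. That count used 3 fragments in each Ribo-seq library and left out the counting error of the RNA-seq mean. The tighter limit from both libraries together was not computed.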
